A study of Mus musculus with 18 samples.

Results

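Expression and translation of 6 mouse genes are described here across all libraries of a ribosome profiling study: the S6 kinase genes Rps6kb1 and Rps6kb2, the eEF2 kinase gene Eef2k, and the LARP genes Larp1, Larp4 and Larp4b. They were picked by gene symbol from the deposited tables as a functional group, and each of the 6 symbols led to 1 of the 15307 features in the count table. The libraries come from GTML cells, a line from medulloblastoma of the GLT1-TRE-MYCN/Luciferase mouse model, in which human MYCN is overexpressed from a transgene directed to progenitors of the hindbrain, and all 3 treatment groups carry it. Cells were held for 3 h with 50 nM Rapalink-1, 5 nM rapamycin or DMSO, with 3 replicates each, and each lysate gave a library of ribosome footprints (the stretches of mRNA that ribosomes cover) and 1 of total RNA, which makes 18 libraries. Rapamycin blocks the growth kinase mTOR from outside its active site, and Rapalink-1 joins rapamycin to a molecule that occupies the ATP site of the same kinase. The doses of the drugs differ, so in any contrast between them drug and dose cannot be told apart. The labels do not say that replicates were separate cultures, so the p-values measure the spread between these samples, and 1 tumour line limits what the groups stand for.

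The S6 kinases are activated by mTOR complex 1 and phosphorylate ribosomal protein S6, the initiation factor eIF4B, the helicase inhibitor PDCD4 and eEF2 kinase. That last step holds in check an enzyme that phosphorylates elongation factor eEF2 and slows the ribosome. LARP1 is another mTOR complex 1 target. It binds the cap and the first bases of mRNAs that begin with a terminal oligopyrimidine (TOP) tract, such as those of ribosomal proteins, and keeps them from being translated when mTOR is off. LARP4 and LARP4B belong to the same La-related family. They bind poly(A)-binding protein and, from work in human cells, stabilise mRNAs.

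Because a TOP tract lies at the very start of an mRNA, the letters around the annotated start are shown for the members, beside those of Rps6 and Eef2, the substrates of these kinases and known TOP mRNAs. Each line gives the gene strand from 10 bases before the RefSeq start through the first 20 bases of the transcript (build GRCm38.p6, 30 bases). Capitals mark the longest unbroken run of C and T in that window, or the first where others are as long. Such ties occur for Rps6kb1 and Eef2k.
Rps6kb1 (chr11:86544788-86544817, minus strand): gcgccggagctgaaCTTgaggagccagtct
Eef2k, first of its annotated starts (chr7:120842821-120842850, plus strand): cccgtgcgtcagTCCCgccccagccctggt
Larp1 (chr11:58009054-58009083, plus strand): aggcgcgccggagCCTTCTgcccggcgcgc
Larp4 (chr15:99972770-99972799, plus strand): aaccggaaacagttgttgCTTCCCgggagg
Larp4b (chr13:9093871-9093900, plus strand): cgcgggggtgggaCTTCCgcagggccccgg
Rps6 (chr4:86857348-86857377, minus strand): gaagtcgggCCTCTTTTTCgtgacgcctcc
Eef2 (chr10:81176621-81176650, plus strand): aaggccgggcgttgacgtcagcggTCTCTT
RefSeq held windows for 5 of the 6 members. A transcript that begins with C followed by at least 4 letters that are C or T, read on the gene strand, was found for Rps6, for 0 of the 5 matched members and for 2.51% of all 32851 annotated starts. It was not found for Eef2, whose annotated first base is G with the run lying further in. The pattern at annotated starts thus misses a known TOP mRNA. The run of 10 pyrimidines of Rps6 was reached or passed in 4.77% of windows, the run of 6 in Larp1 and Larp4 in 28.7%, and the run of 5 in Larp4b in 46.4%. The run of Eef2 is cut by the end of its window, so its 6 letters are a lower bound and are not ranked. The absence of the pattern says only that these letters are not at the annotated start, and start sites in these cells were not measured.

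The genes lie on chromosome 11 from 86498869 to 86544885 (Rps6kb1), chromosome 19 from 4156792 to 4163383 (Rps6kb2), chromosome 7 from 120842642 to 120907219 (Eef2k), chromosome 11 from 57973418 to 58062034 (Larp1), chromosome 15 from 99970065 to 100016358 (Larp4) and chromosome 13 from 9093653 to 9174451 (Larp4b), and each is protein-coding. Library depth ran from 7692625 to 14150068 reads for footprints and from 6788365 to 13300292 for RNA. The reads per library on a member were fewest for Rps6kb2, with 70 to 160 footprints and 98 to 167 RNA reads, and most for Larp4, with 2728 to 7281 footprints and 1918 to 3544 RNA reads. The labels name no spike-in, so values are relative to the other genes of a library, and in bulk lysates fewer cells of a type and less RNA per cell cannot be told apart. Of 17 markers of granule neuron lineage and hindbrain progenitors 10 had a row, each above 1 CPM (reads scaled to a common library size). Rows were found for 1 of 7 oligodendrocyte markers, 2 of 8 for microglia and blood, 1 of 9 for vessels and fibroblasts, and 0 of 4 for astrocytes. Slc1a2 and Slc1a3, transporter genes that astrocytes also express, are among the 10. Only 9787 of the 15307 features carry a gene symbol, so a missing row need not mean a silent gene. Acta2, the vessel and fibroblast marker found, averaged 266.5 CPM in footprints and 35.6 CPM in RNA. Itgam, of the microglia and blood pair, averaged 51.7 and 90.9 CPM, and its partner Hbb-bs 1.63 and 25.7 CPM. Neurod1, the highest of the 10, averaged 304.9 and 144.6 CPM. The summed footprints of those 10 lineage markers ran from 908 to 968 CPM with Rapalink-1, from 643.5 to 663 CPM with rapamycin and from 509 to 526 CPM with DMSO, and the pair of microglia and blood markers from 26.0 to 29.1 CPM with Rapalink-1, from 58.1 to 73.2 CPM with rapamycin and from 52.1 to 78.3 CPM with DMSO. In RNA the lineage markers summed to 387 to 412 CPM with Rapalink-1, 444 to 450.5 CPM with rapamycin and 363 to 394.5 CPM with DMSO, with Rapalink-1 overlapping DMSO. The microglia and blood pair summed in RNA to 98.8 to 109 CPM with Rapalink-1, 107 to 122.5 CPM with rapamycin and 105 to 148 CPM with DMSO, and again Rapalink-1 overlapped DMSO. Mitochondrial genes took 1.01% to 1.81% of footprints with Rapalink-1, 0.373% to 0.405% with rapamycin and 0.321% to 0.814% with DMSO. The part of the markers and of the mitochondrial share in the results was not tested. The sample names mark the Rapalink-1 and DMSO footprint libraries RP-B and the rapamycin ones RP, a difference the sources do not explain. It cannot be told apart from rapamycin in footprints or in efficiency, whether against DMSO or against Rapalink-1.

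The first question is where the members stood on the scale of translation within each treatment. The ratio of footprint to RNA CPM, taken within a lysate, is used to set genes side by side, as transcript length enters both parts. Length need not cancel, since footprints come only from the stretches that ribosomes cover, so places between genes are approximate. In DMSO cells the members spread widely, with the ratios of the S6 kinases and eEF2 kinase below the middle of all genes and those of Larp1 and Larp4 above it. The ratio in DMSO cells was 0.497 for Rps6kb1, 0.616 for Eef2k, 0.728 for Rps6kb2, 1.00 for Larp4b, 1.86 for Larp4 and 2.15 for Larp1. As log2 ratios these are -1.01 ± 0.074, -0.70 ± 0.14, -0.46 ± 0.13, 0.01 ± 0.071, 0.90 ± 0.015 and 1.10 ± 0.091 (SD, n = 3). In that order Rps6kb1 exceeded 11.9% of the 10988 genes measured in both assays and Larp1 exceeded 89.2%. Rps6kb2 and Eef2k overlapped across the 3 lysates of DMSO, from -0.55 to -0.31 against -0.81 to -0.54, while the other neighbours in that order did not.

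**Figure D1:**
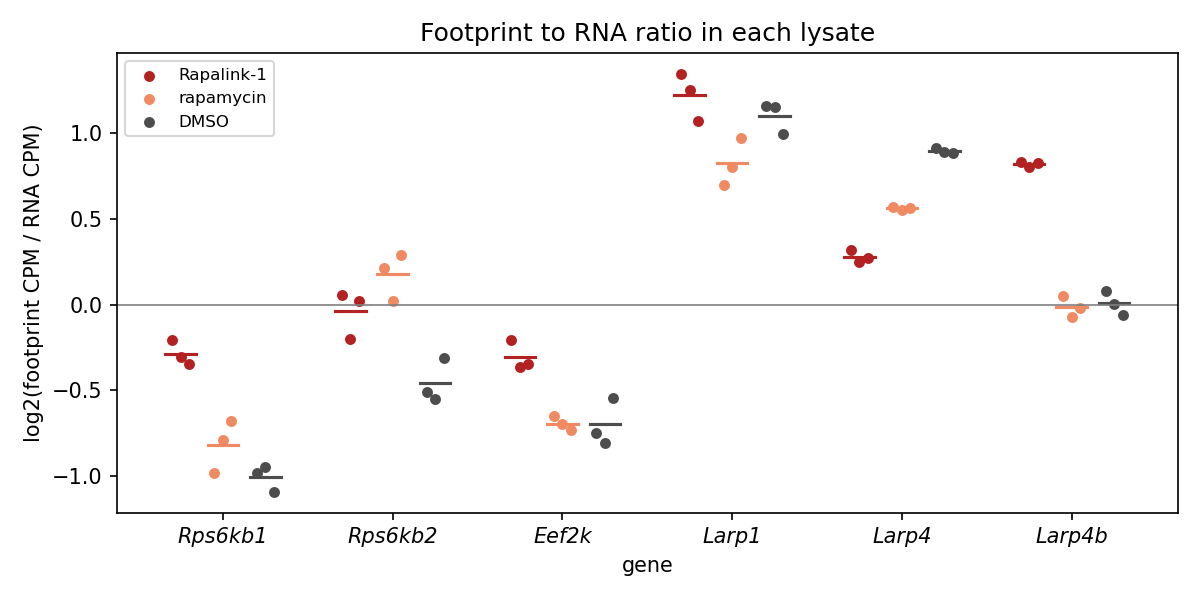
Log2 ratio of footprint CPM to RNA CPM for each gene and lysate, with short lines at the mean of 3 lysates; colours mark Rapalink-1, rapamycin and DMSO. Larp4b stood near 0.82 in all lysates with Rapalink-1 and near 0 in those with rapamycin and DMSO, while Larp4 was lowest with Rapalink-1 at 0.28, between with rapamycin at 0.56 and highest with DMSO at 0.90.

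This spacing changed with treatment. In Rapalink-1 cells the mean log2 ratio was 1.22 for Larp1, 0.82 for Larp4b, 0.28 for Larp4, -0.04 for Rps6kb2, -0.29 for Rps6kb1 and -0.31 for Eef2k. Larp4b had thus passed Larp4, and Rps6kb1 and Eef2k, from -0.34 to -0.21 and from -0.37 to -0.21, now overlapped. In rapamycin cells the order from the top was Larp1 at 0.82, Larp4 at 0.56, Rps6kb2 at 0.18, Larp4b at -0.01, Eef2k at -0.69 and Rps6kb1 at -0.82. Eef2k overlapped Rps6kb1 there, and the lowest lysate of Rps6kb2, at 0.02, fell below the highest of Larp4b, at 0.05.

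The comparison of Rapalink-1 with DMSO asks how these mRNAs fare when mTOR is blocked toward the S6 kinases as well as the cap-binding arm. Translational efficiency is the footprint change less the RNA change, on the log2 scale and in 1 fit. It rose for Rps6kb1, Eef2k and Larp4b and fell for Larp4. That is 3 of 6 members higher, where 22.3% of all genes tested were called higher, and 1 of 6 lower, where 19.9% were (42.2% in either direction). Library totals in place of scaling by TMM (trimmed mean of M-values) turn the split of all genes from 2455 higher and 2182 lower into 5563 higher and 841 lower. RNA fell for Rps6kb1, Larp1 and Larp4b, 3 of 6 against a background of 18.8% called lower, and rose for 0 of 6 against 19.4% (38.2% in either direction). Footprints rose for Rps6kb1, Eef2k and Larp4b, 3 of 6 against 25.7%, and fell for Larp1 and Larp4, 2 of 6 against 28.0% (53.7% in either direction). A gene is called at an adjusted p under 0.05 from the quasi-likelihood test of edgeR, adjusted over all genes. With 6 genes, these shares describe the members and are not tested against the background.

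The comparison of rapamycin with DMSO asks the same for a drug that, per the study's design text, spares the eIF4E arm. It moved fewer members. Efficiency rose for Rps6kb2, 1 of 6 against 6.52% of all genes, and fell for Larp1 and Larp4, 2 of 6 against 9.85% (16.4% in either direction). RNA rose for Larp1, 1 of 6 against 13.6%, and fell for Rps6kb2, 1 of 6 against 10.5% (24.1% in either direction). Footprints rose for 0 of 6 against 8.75% and fell for Larp4, 1 of 6 against 9.40% (18.1% in either direction). This comparison shares its DMSO libraries with that of Rapalink-1. A direct contrast of Rapalink-1 with rapamycin compares no DMSO library, though the DMSO libraries enter its scaling and its estimate of the spread. In it efficiency was higher for Rps6kb1, Eef2k, Larp1 and Larp4b, 4 of 6 against 26.1% of all genes, and lower for Larp4, 1 of 6 against 23.9% (50.1% in either direction). RNA was higher for 0 of 6 against 19.6% and lower for Rps6kb1, Larp1 and Larp4b, 3 of 6 against 21.5% (41.1% in either direction). Footprints were higher for Rps6kb1, Eef2k and Larp4b, 3 of 6 against 25.4%, and lower for Larp1 and Larp4, 2 of 6 against 27.6% (53.1% in either direction).

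**Figure D2:**
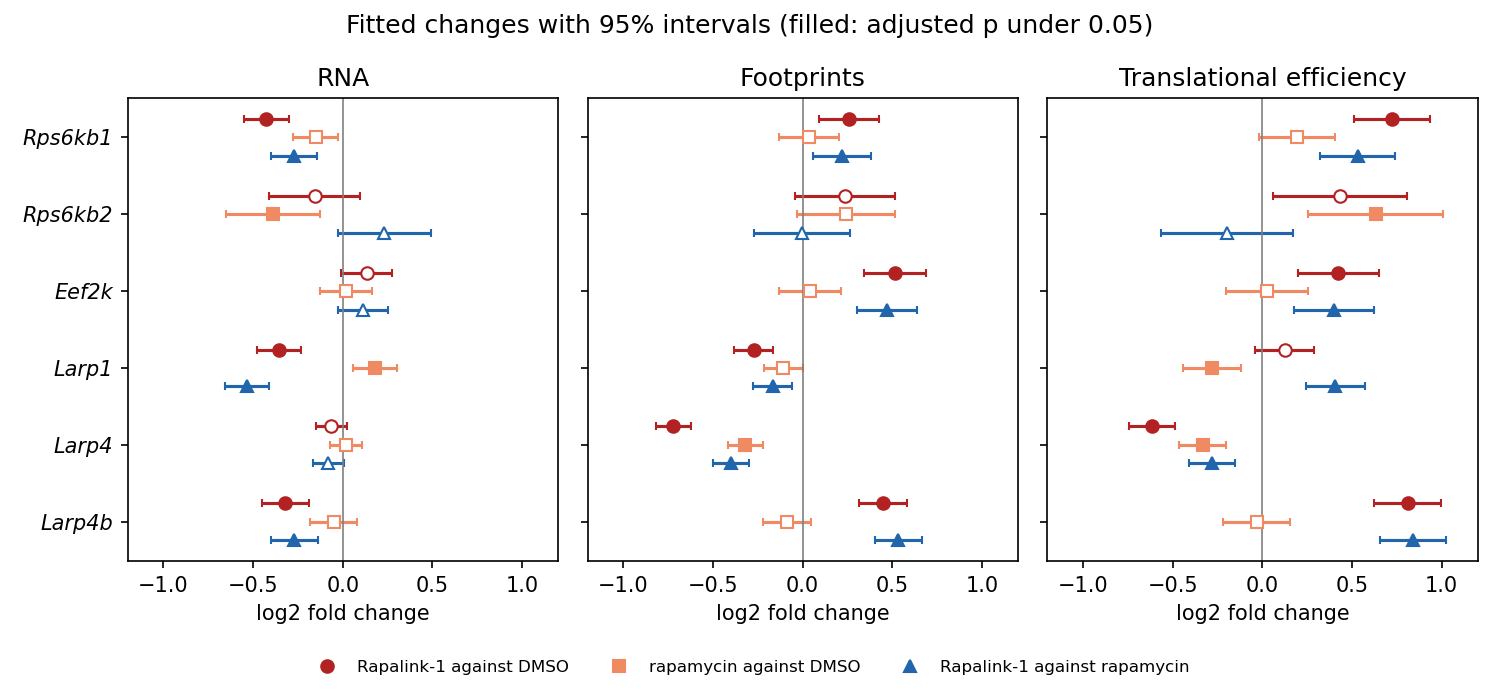
Fitted log2 fold change of RNA, footprints and translational efficiency for each gene, with 95% intervals; filled symbols have an adjusted p under 0.05. With Rapalink-1 against DMSO the efficiency of Larp4b stood at 0.81 and that of Larp4 at -0.62, on opposite sides of 0, and Rps6kb1 combined a lower RNA at -0.43 with higher footprints at 0.26.

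Rps6kb1, which encodes S6 kinase 1, had less RNA and more footprints with Rapalink-1. RNA of Rps6kb1 was 54.0, 59.2 and 62.4 CPM with Rapalink-1, 70.3, 72.3 and 69.4 CPM with rapamycin, and 79.9, 76.7 and 79.0 CPM with DMSO. The 3 groups did not overlap, with Rapalink-1 lowest and DMSO highest. Footprints of Rps6kb1 were 45.6, 46.7 and 48.2 CPM with Rapalink-1, 35.5, 42.0 and 43.2 CPM with rapamycin, and 40.4, 39.7 and 37.3 CPM with DMSO. All Rapalink-1 libraries lay above the others, and those of rapamycin overlapped DMSO. With Rapalink-1 against DMSO, RNA fell by 0.43 ± 0.065 on the log2 scale (SE, adjusted p = 1.0e-06), footprints rose by 0.26 ± 0.085 (adjusted p = 0.010) and efficiency rose by 0.72 ± 0.11 (adjusted p = 1.9e-07). That rise in efficiency exceeded the change of 91.7% of genes. With rapamycin against DMSO none of the 3 passed, RNA standing at -0.15 ± 0.065 (adjusted p = 0.084) and efficiency at 0.19 (95% interval -0.02 to 0.40, adjusted p = 0.24). Between the drugs, efficiency was 0.53 ± 0.11 higher with Rapalink-1 (adjusted p = 3.4e-05) and RNA differed by -0.27 ± 0.065 (adjusted p = 0.00068). The footprint call against DMSO was lost without DMSO replicate 3 (adjusted p = 0.051). That against rapamycin, at 0.22 ± 0.083 (adjusted p = 0.025), was lost without Rapalink-1 replicate 2 or 3 or rapamycin replicate 1 (adjusted p from 0.052 to 0.22), the last at 0.13. Under library totals the Rapalink-1 values against DMSO were 0.53 in footprints (median of all genes 0.28) and 1.09 in efficiency (median 0.43). Against rapamycin they were 0.44 in footprints, 0.86 in efficiency and -0.42 in RNA, beside medians of 0.23, 0.37 and -0.14.

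Rps6kb2, the gene of S6 kinase 2, had the fewest reads of the members, and its called changes were with rapamycin. RNA of Rps6kb2 was 12.7, 13.5 and 13.0 CPM with Rapalink-1, 10.28, 12.79 and 10.04 CPM with rapamycin, and 14.6, 14.6 and 14.5 CPM with DMSO. Both drug groups lay below DMSO, and they overlapped each other. With Rapalink-1 against DMSO the RNA change did not pass, at -0.16 ± 0.13 (adjusted p = 0.36). Footprints of Rps6kb2 were 12.9, 11.4 and 13.0 CPM with Rapalink-1, 12.1, 13.2 and 12.4 CPM with rapamycin, and 10.2, 9.81 and 11.8 CPM with DMSO. The rapamycin libraries lay above DMSO, while 1 of the Rapalink-1 libraries fell within the DMSO range. With rapamycin against DMSO, RNA fell by 0.39 ± 0.13 (adjusted p = 0.028) and efficiency rose by 0.63 ± 0.19 (adjusted p = 0.016), above 96.5% of genes, while footprints stood at 0.24 ± 0.14 (adjusted p = 0.25). The RNA call was lost without DMSO replicate 1 or rapamycin replicate 1 or 3 (adjusted p from 0.075 to 0.12), and the efficiency call without DMSO replicate 1 or 2 or rapamycin replicate 1 or 3 (adjusted p from 0.057 to 0.076). With Rapalink-1 against DMSO efficiency stood at 0.43 (95% interval 0.06 to 0.81, adjusted p = 0.062). Under library totals it was 0.80 and passed (adjusted p = 0.00033), where the median of all genes was 0.43. Footprints, at 0.24 ± 0.14 (adjusted p = 0.16), likewise passed under library totals at 0.51 (adjusted p = 0.0022), where the median was 0.28. The drugs did not differ past the test in efficiency, at -0.20 (95% interval -0.57 to 0.17, adjusted p = 0.40), an interval that leaves room for changes in either direction.

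**Figure D3:**
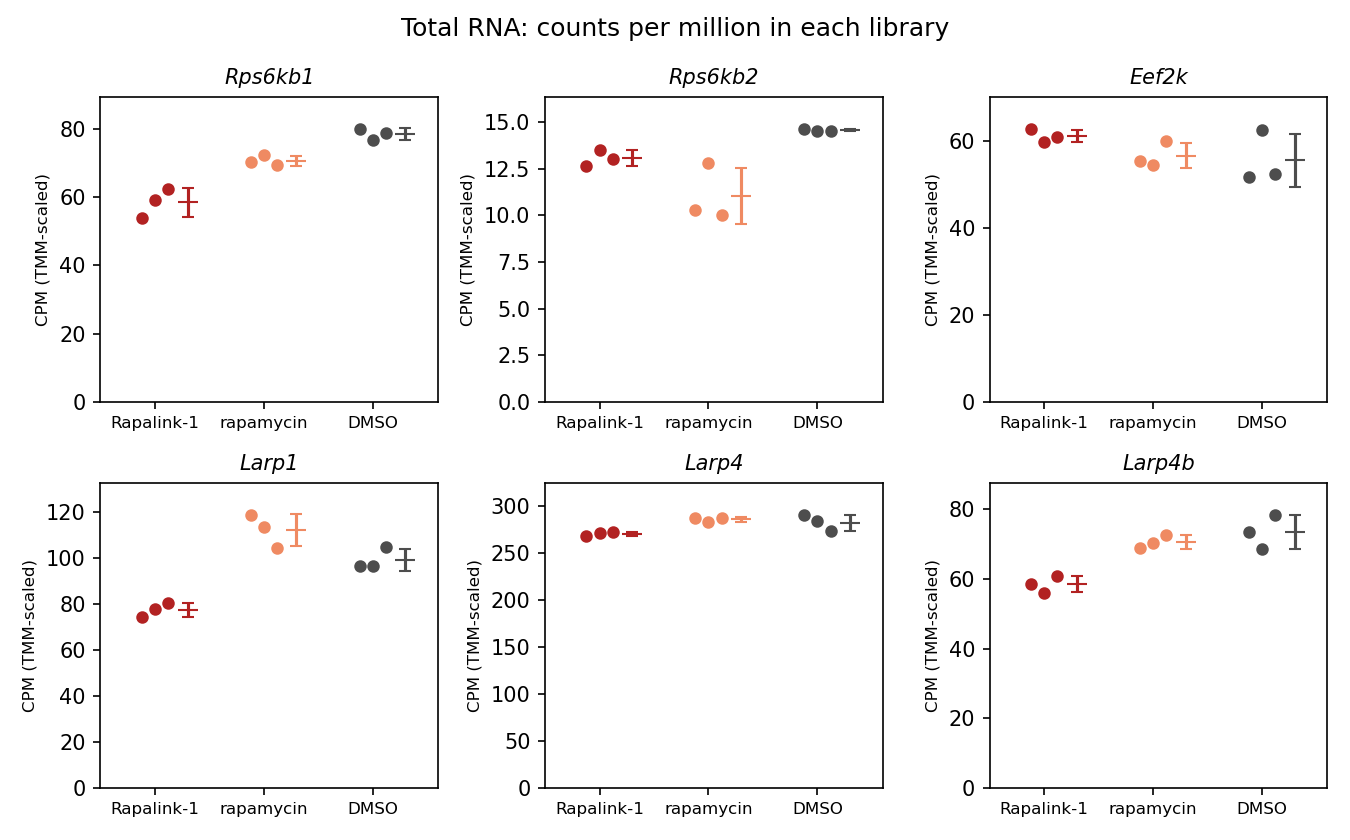
RNA in each library as CPM scaled with TMM factors, from 0, for the 6 genes; points are replicates, and the bar beside them is the mean with its SD (n = 3). Rps6kb1, Larp1 and Larp4b were lowest with Rapalink-1, with means of 58.5, 77.5 and 58.6 CPM, and Larp4 kept to a narrow range of 268 to 290.4 CPM over all libraries.

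Eef2k, whose product brakes elongation, gained footprints with Rapalink-1 and showed no called change with rapamycin. RNA of Eef2k was 62.7, 59.9 and 60.9 CPM with Rapalink-1, 55.4, 54.6 and 59.9 CPM with rapamycin, and 51.7, 62.6 and 52.5 CPM with DMSO. These groups overlapped, DMSO replicate 2 standing apart from the other DMSO libraries. Footprints of Eef2k were 52.9, 45.3 and 47.0 CPM with Rapalink-1, 35.2, 33.8 and 35.9 CPM with rapamycin, and 30.7, 35.8 and 36.3 CPM with DMSO. Every Rapalink-1 library lay above every other, and rapamycin lay within the DMSO range. With Rapalink-1 against DMSO, footprints rose by 0.51 ± 0.088 (adjusted p = 4.9e-06) and efficiency by 0.42 ± 0.12 (adjusted p = 0.0024), above 76.6% of genes. RNA stood at 0.13 ± 0.073 (adjusted p = 0.15), and without DMSO replicate 2 it passed at 0.24 (adjusted p = 0.0097). With rapamycin against DMSO efficiency stood at 0.02 (95% interval -0.21 to 0.25, adjusted p = 0.93) and footprints at 0.04 ± 0.089 (adjusted p = 0.81). Between the drugs, efficiency was higher with Rapalink-1 by 0.40 ± 0.11 (adjusted p = 0.0027) and footprints by 0.47 ± 0.086 (adjusted p = 1.3e-05). Under library totals the efficiency with Rapalink-1 was 0.79 against DMSO and 0.72 against rapamycin, where the medians of all genes were 0.43 and 0.37. Footprints were then 0.79 against DMSO, where the median was 0.28.

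**Figure D4:**
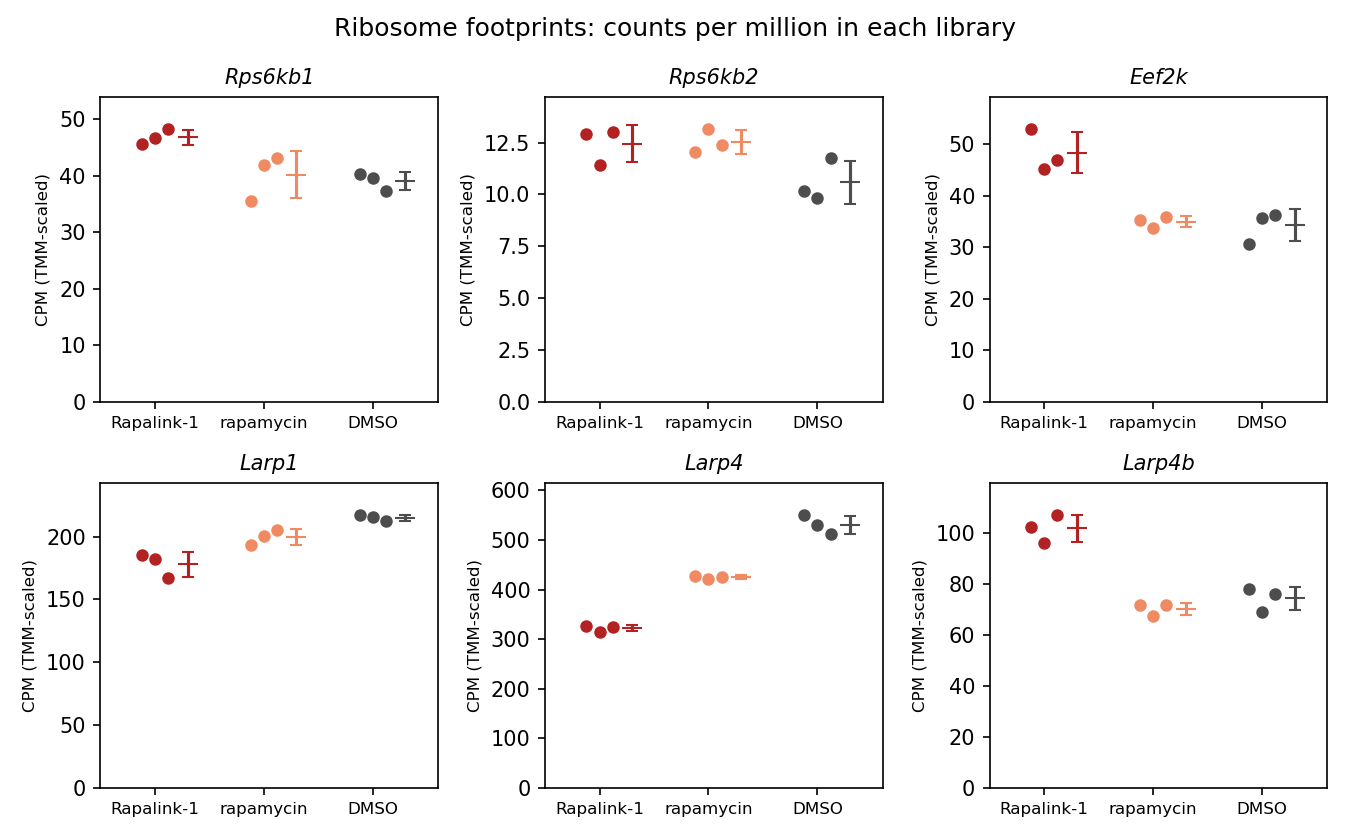
Ribosome footprints in each library as CPM scaled with TMM factors, from 0, for the 6 genes; points are replicates, and the bar beside them is the mean with its SD (n = 3). Rps6kb1, Eef2k and Larp4b were highest with Rapalink-1, with means of 46.8, 48.4 and 102 CPM, whereas Larp4 averaged 322 CPM with Rapalink-1, 425 with rapamycin and 530.5 with DMSO.

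Larp1, the gene of the TOP-binding repressor, moved in opposite directions in RNA under the drugs. RNA of Larp1 was 74.3, 77.8 and 80.4 CPM with Rapalink-1, 118.5, 113 and 104.5 CPM with rapamycin, and 96.6, 96.4 and 105 CPM with DMSO. Rapalink-1 lay below both other groups, and the lowest rapamycin library fell just inside the DMSO range. Footprints of Larp1 were 185, 182 and 167 CPM with Rapalink-1, 193, 200.2 and 206 CPM with rapamycin, and 217, 216 and 212 CPM with DMSO. No groups overlapped, Rapalink-1 being lowest and DMSO highest. RNA fell by 0.35 ± 0.063 with Rapalink-1 (adjusted p = 1.3e-05) and rose by 0.18 ± 0.062 with rapamycin (adjusted p = 0.027), and differed by -0.53 ± 0.062 between Rapalink-1 and rapamycin (adjusted p = 2.0e-09). The rise with rapamycin was lost with DESeq2 (adjusted p = 0.054) and without DMSO replicate 1 or 2 or rapamycin replicate 1 or 2 (adjusted p from 0.074 to 0.17). Footprints fell by 0.27 ± 0.056 with Rapalink-1 (adjusted p = 7.7e-05) and stood at -0.11 ± 0.055 with rapamycin (adjusted p = 0.19). Under library totals the footprint value with Rapalink-1 against DMSO was 0.00040 (adjusted p = 0.995), where the median of all genes was 0.28. Relative to that median Larp1 stood at -0.28 under both scalings. A change of scaling moves all genes by nearly the same amount. Values relative to the median therefore stay put, here and below, and are no check.

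Larp1 efficiency took opposite signs against DMSO with the drugs, though 1 of these values did not pass. It stood at 0.12 (95% interval -0.04 to 0.29, adjusted p = 0.24) with Rapalink-1, and fell by 0.28 ± 0.083 with rapamycin (adjusted p = 0.012), a value above that of 18.5% of genes. The fall with rapamycin was lost without DMSO replicate 1 (adjusted p = 0.063) or rapamycin replicate 1 (adjusted p = 0.12). The value with Rapalink-1 passed under library totals, at 0.49 (adjusted p = 2.6e-06), where the median of all genes was 0.43 and 50.6% of them were called higher. Relative to the median Larp1 stood at 0.065 under both scalings. Between the drugs efficiency was 0.41 ± 0.083 higher with Rapalink-1 (adjusted p = 4.7e-05), and 0.73 under library totals, where the median was 0.37. Footprints between the drugs stood at -0.17 ± 0.056 (adjusted p = 0.012), a call lost without Rapalink-1 replicate 3 (adjusted p = 0.11) or rapamycin replicate 3 (adjusted p = 0.057) and turned to 0.06 under library totals (adjusted p = 0.41), or -0.17 relative to the median of all genes under both scalings.

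The close relatives Larp4 and Larp4b parted. Larp4, the more abundant in reads, lost footprints with both drugs and had no called RNA change. RNA of Larp4 was 268, 271 and 273 CPM with Rapalink-1, 287.5, 283 and 288 CPM with rapamycin, and 290.4, 284 and 273 CPM with DMSO. Rapalink-1 lay just below the DMSO range and rapamycin within it. Footprints of Larp4 were 326, 315 and 324 CPM with Rapalink-1, 428, 421 and 426 CPM with rapamycin, and 549.5, 529.7 and 512.5 CPM with DMSO. The groups were well apart, Rapalink-1 lowest, rapamycin between and DMSO highest. Footprints fell by 0.72 ± 0.051 with Rapalink-1 (adjusted p = 2.4e-15) and by 0.32 ± 0.05 with rapamycin (adjusted p = 7.4e-06). Efficiency fell by 0.62 ± 0.067 with Rapalink-1 (adjusted p = 4.2e-11) and by 0.33 ± 0.066 with rapamycin (adjusted p = 0.00019). RNA stood at -0.06 (95% interval -0.15 to 0.03, adjusted p = 0.29) with Rapalink-1 and at 0.02 (95% interval -0.07 to 0.11, adjusted p = 0.84) with rapamycin. Under library totals RNA with Rapalink-1 stood at -0.20 against DMSO and passed (adjusted p = 0.00038), where the median of all genes was -0.13. It also passed against rapamycin at -0.22, where the median was -0.14. Between Rapalink-1 and rapamycin footprints differed by -0.40 ± 0.05 (adjusted p = 1.3e-08), which was -0.18 under library totals, where the median was 0.23. Efficiency between them differed by -0.28 ± 0.067 (adjusted p = 0.00035), and this turned to 0.04 under library totals (adjusted p = 0.61), or -0.32 relative to the median of all genes under both scalings. Under the same totals the values against DMSO with Rapalink-1 were -0.45 in footprints and -0.25 in efficiency, both still past the test. The medians of all genes there were 0.28 and 0.43.

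Larp4b gained footprints with Rapalink-1 while its RNA fell, and showed no called change with rapamycin. RNA of Larp4b was 58.6, 56.1 and 61.0 CPM with Rapalink-1, 68.9, 70.3 and 72.6 CPM with rapamycin, and 73.5, 68.5 and 78.3 CPM with DMSO. All Rapalink-1 libraries lay below the rest. Footprints of Larp4b were 102, 96.2 and 107 CPM with Rapalink-1, 71.6, 67.6 and 71.7 CPM with rapamycin, and 78.0, 69.1 and 75.9 CPM with DMSO. All Rapalink-1 libraries lay above the rest, and rapamycin overlapped DMSO. With Rapalink-1 against DMSO, RNA fell by 0.32 ± 0.066 (adjusted p = 0.00013), footprints rose by 0.45 ± 0.068 (adjusted p = 4.8e-07) and efficiency rose by 0.81 ± 0.095 (adjusted p = 4.4e-10), above 94.1% of genes. With rapamycin against DMSO efficiency stood at -0.03 (95% interval -0.22 to 0.15, adjusted p = 0.88), and between the drugs it was 0.84 ± 0.094 higher with Rapalink-1 (adjusted p = 6.8e-11). The calls of Larp4b held under every alternative run. Under library totals footprints were 0.72 against DMSO, where the median of all genes was 0.28. RNA against rapamycin, -0.27 ± 0.066 here, was then -0.41, beside a median of -0.14.

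The kinases' own substrates Rps6 and Eef2 fell in efficiency with both drugs. Footprints of Rps6, the S6 kinase substrate, were 368, 365 and 349.9 CPM with Rapalink-1, 1052, 1046 and 1110 CPM with rapamycin, and 1595, 1582 and 1490 CPM with DMSO. Footprints of Eef2, the eEF2 kinase substrate, were 392, 396 and 394 CPM with Rapalink-1, 3062, 3030 and 2953 CPM with rapamycin, and 4024, 4352 and 4162 CPM with DMSO. Neither gene overlapped between groups. Efficiency of Rps6 fell by 2.29 ± 0.062 with Rapalink-1 (adjusted p = 2.5e-36) and by 0.60 ± 0.061 with rapamycin (adjusted p = 1.4e-10), while that of Eef2 fell by 4.23 ± 0.06 with Rapalink-1 (adjusted p = 1.4e-49) and fell by 0.88 ± 0.057 with rapamycin (adjusted p = 6.4e-17).

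Among 28 listed S6 kinase substrates and partners 26 could be tested. Their efficiency with Rapalink-1 against DMSO rose for 5 and fell for 10 of them, against 22.3% higher and 19.9% lower among all genes tested, with a median of -0.11 beside 0.06 over all genes. With rapamycin it rose for 0 and fell for 9, against 6.52% and 9.85% of all genes, with a median of -0.20 beside -0.0019 over all genes. Eif4b, an initiation factor that assists the helicase eIF4A, fell by 1.95 ± 0.062 in efficiency with Rapalink-1 (adjusted p = 2.8e-33) and by 0.71 ± 0.061 with rapamycin (adjusted p = 4.1e-13). Its mRNA and that of Rps6, also on this list, are TOP mRNAs, and the part of this in the falls was not tested. Cct2, a chaperonin subunit, fell by 1.57 ± 0.066 with Rapalink-1 (adjusted p = 9.7e-28) and stood at -0.17 with rapamycin (adjusted p = 0.059). Under library totals, which moved the median of all genes by 0.37 in this comparison, the list counted 13 higher and 5 lower with Rapalink-1, against 50.6% and 7.65% of all genes. Its median was then 0.26, beside 0.43 over all genes. Since the scaling moves all genes nearly alike, that order could not change and is no check.

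Of 13 p90 and related AGC kinases, relatives of the S6 kinases, 11 could be tested. Among them efficiency with Rapalink-1 against DMSO rose for 2 and fell for 0, where 22.3% and 19.9% of all genes did, with a median of 0.22 beside 0.06 over all genes. With rapamycin it rose for 1 and fell for 1, where 6.52% and 9.85% of all genes did, with a median of 0.07 beside -0.0019. Under library totals 10 rose with Rapalink-1, where 50.6% of all genes did. Akt2, a kinase upstream of mTOR, rose by 0.68 ± 0.11 with Rapalink-1 (adjusted p = 2.3e-06) and by 0.34 ± 0.11 with rapamycin (adjusted p = 0.029). Rps6ka6, a member of the p90 family, rose by 0.24 ± 0.087 with Rapalink-1 (adjusted p = 0.025) and stood at 0.06 with rapamycin (adjusted p = 0.73).

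The eEF2 kinase list includes AMP-activated kinase, phosphatase and diphthamide genes and the substrate Eef2, and all 20 genes beside Eef2k could be tested. In this list efficiency with Rapalink-1 against DMSO rose for 4 and fell for 5 of 20, shares near the 22.3% and 19.9% of all genes, with a median of -0.03 beside 0.06 over all genes. With rapamycin it rose for 1 and fell for 2, beside 6.52% and 9.85% of all genes, with a median of 0.03 beside -0.0019. Under library totals 10 rose and 1 fell with Rapalink-1, beside 50.6% and 7.65% of all genes. Ppp2ca, the catalytic subunit of protein phosphatase 2A, rose by 0.51 ± 0.069 with Rapalink-1 (adjusted p = 2.4e-08) and stood at 0.09 with rapamycin (adjusted p = 0.43). This gene is counted in the S6 kinase list too.

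Of 22 further La, LARP, poly(A)-binding and TOP-binding genes 18 could be tested. Efficiency with Rapalink-1 against DMSO rose for 9 and fell for 3, beside 22.3% and 19.9% of all genes, with a median of 0.30 beside 0.06 over all genes. Under library totals it rose for 15 and fell for 3, beside 50.6% and 7.65% of all genes. With rapamycin it rose for 0 and fell for 4, beside 6.52% and 9.85% of all genes, with a median of 0.04 beside -0.0019. Rack1, a ribosome-bound scaffold that binds LARP4B in human cells, fell by 2.16 ± 0.07 with Rapalink-1 (adjusted p = 6.7e-31) and by 0.41 ± 0.069 with rapamycin (adjusted p = 1.9e-05). Its mRNA is also a TOP mRNA. Pabpc4, a poly(A)-binding protein, fell by 1.84 ± 0.083 with Rapalink-1 (adjusted p = 4.0e-26) and by 0.44 ± 0.08 with rapamycin (adjusted p = 4.1e-05). Cnot1, the scaffold of the CCR4-NOT deadenylase, rose by 0.76 ± 0.09 with Rapalink-1 (adjusted p = 6.2e-09) and fell by 0.59 ± 0.089 with rapamycin (adjusted p = 5.5e-06).

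**Figure D5:**
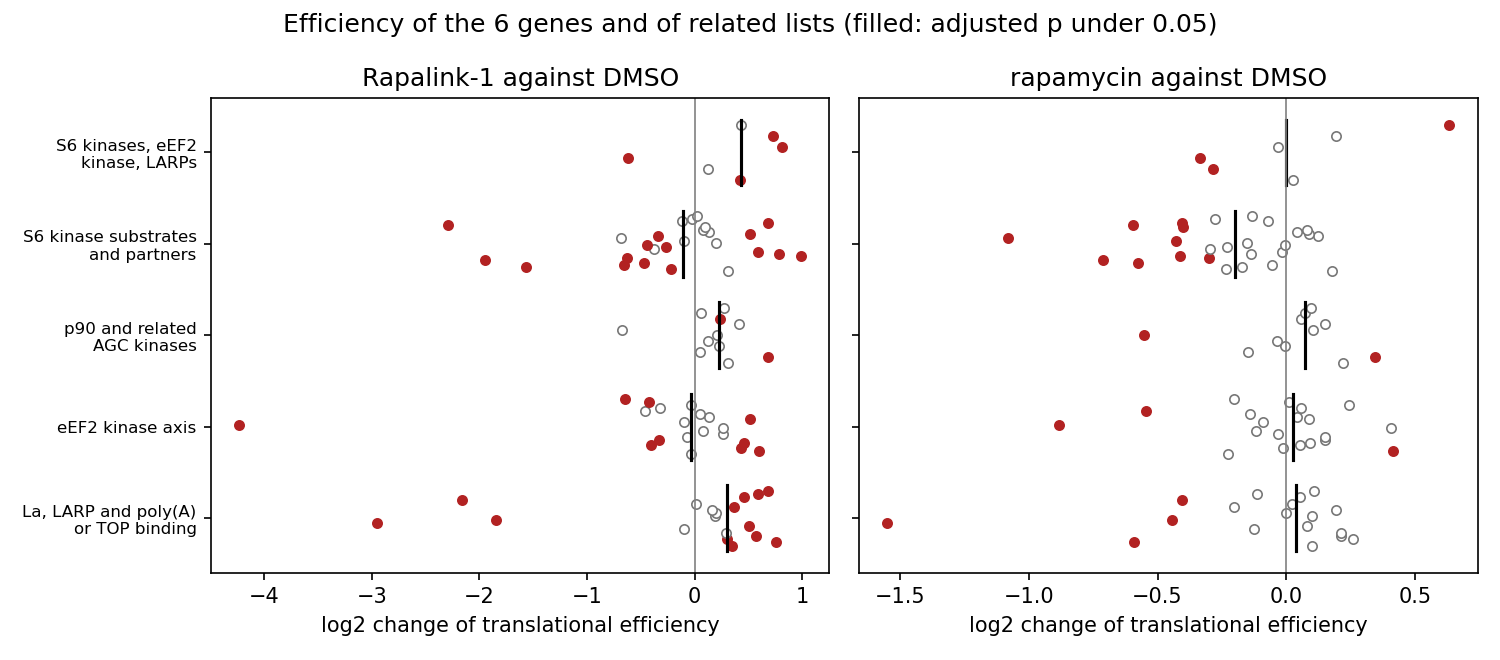
Log2 change of translational efficiency for the 6 genes and for the genes of each related list, with Rapalink-1 against DMSO on the left and rapamycin against DMSO on the right, whose axes differ; each point is a gene, filled where its adjusted p is under 0.05, and black lines are medians. The lowest points on the left are Eef2 at -4.23, Pabpc1 at -2.95 and Rps6 at -2.29.

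The genes whose pattern was most like a member were sought over the 18 libraries, as Pearson r of log2(CPM + 1) centred within each assay. The 5982 genes compared had a mean log2 CPM of at least 4 in each assay. All share the same libraries and treatments, so r describes likeness and carries no test. For Rps6kb1 they were Eri1 at 0.90, Nuf2 at 0.88 and Kansl2 at 0.87, and for Eef2k they were Tssc4 at 0.93, Hars2 at 0.90 and Sipa1l2 at 0.90. The scarce Rps6kb2 had lower values, 0.79 for 4933434E20Rik, 0.79 for Scarb1 and 0.76 for Pcbp4. For Larp1 they were Luzp1 at 0.94, Psmd7 at 0.93 and Slc7a1 at 0.92. For Larp4 they were the helicase gene Ddx21 at 0.97 and the ribosomal protein genes Rps24 at 0.97 and Rpl17 at 0.96. For Larp4b they were Mtf2 at 0.95, Gpbp1 at 0.94 and Fam208b at 0.94.

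In the authors' deposited tables the members' values against DMSO had the same sign as here in 36 of 36 cases and lay on the same side of 0.05 in 35. The exception is RNA of Larp4 with Rapalink-1, at -0.09 with an adjusted p of 0.045 in the authors' deposited table and at -0.06 with an adjusted p of 0.29 here.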

How the data were processed

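Counts: the count values are whole-number read counts per Ensembl transcript row as deposited by the authors, aligned to GRCm38 per the submitters' processing notes; no source used here names the aligner or the counter. Footprint and RNA libraries used the same ARTseq kit, per the labels' protocols. The comparison tables, deposited by the authors, hold signal (baseMean, a mean of normalized counts), log2 fold changes with errors, a score (stat) and p-values, and the file headers name no tool for them.

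The 27382 rows, 6378 of them 0 throughout, were merged by equal counts or Ensembl gene to 15307 features; Eef2k joined 3 rows of equal counts, the others 1. Genes passed filterByExpr (minimum count 10, total 15), in both assays for efficiency, leaving 11271 for RNA, 11281 for footprints and 10988 for efficiency. edgeR 4.0.16 (TMM, glmQLFit robust, glmQLFTest; R 4.3.3) was fitted to the 9 libraries of an assay, or all 18 for the interaction of assay and treatment, with Benjamini-Hochberg adjustment over all genes. Ratios of footprints to RNA used CPM + 0.5, averaged as log2. Standard errors are the log2 fold change over the root of F, and 95% intervals are 1.96 standard errors. The fitted coefficient of variation between replicates came to 5.72% for RNA, 6.38% for footprints and 6.05% in the joint fit. The procedure was tested on simulated data. DESeq2 1.42.0, other scalings, no filter, only the treatments compared, unmerged rows, replicate blocks and leaving out each replicate were alternatives.

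Members, lists and tests were chosen with earlier results of these data known. Genes outside the members were named by rule: the 3 most alike in pattern per member, up to 3 per list with the smallest p in efficiency with Rapalink-1, Rps6 and Eef2; Pabpc1, in a caption, was picked after its value was seen. One gene that the rule names is not reported here. Footprint and RNA libraries of 1 number come from 1 lysate, per the labels' protocols, and so are paired; their deviations from the group means correlated between -0.033 and 0.083.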

Additional observations from a re-analysis of the deposited data

How the results depend on the processing

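Of 31 calls on a member, 22 held under every alternative. Of 446 alternative values for those calls, 20 lost the test and 3 turned sign, all 3 under library totals. Of 328 alternative values for the 23 results not called, 6 passed the test and 18 turned sign. Library totals in place of TMM moved the median of all genes with Rapalink-1 against DMSO by 0.37 in efficiency, 0.27 in footprints and -0.14 in RNA.

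Under library totals, with Rapalink-1 against DMSO RNA of Eef2k turned to -0.0033 and footprints of Larp1 to 0.00040. With Rapalink-1 against rapamycin RNA of Eef2k turned to -0.030, footprints of Larp1 to 0.056 and of Rps6kb2 to 0.218, and efficiency of Rps6kb2 to 0.127 and of Larp4 to 0.044. Efficiency of Larp4b with rapamycin against DMSO turned to 0.011. Members called lower in footprints with Rapalink-1 became 1 against DMSO, beside 14.1% of all genes, and 1 against rapamycin, beside 16.2%. Those higher in efficiency with Rapalink-1 against DMSO became 5, beside 50.6% of all genes. Those lower in efficiency against rapamycin became 0, beside 10.9%. The log2 ratio in DMSO cells became -1.15 for Rps6kb1, -0.59 for Rps6kb2, 0.96 for Larp1, 0.76 for Larp4 and -0.13 for Larp4b. Footprints of Rps6kb2 with Rapalink-1 against rapamycin were 0.0048 with DESeq2 size factors and 0.0041 with the DESeq2 test. That test also took the members called higher in RNA with rapamycin against DMSO to 0, beside 1246 of 11271 genes. The cause was not tested.

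Leaving out 1 replicate, the values with rapamycin against DMSO ran from -0.037 to 0.114 for RNA of Eef2k, from -0.0063 to 0.036 for RNA of Larp4, from -0.014 to 0.122 for footprints of Rps6kb1, from -0.043 to 0.091 for footprints of Eef2k, from -0.045 to 0.108 for efficiency of Eef2k and from -0.068 to 0.0039 for efficiency of Larp4b. Footprints of Rps6kb2 with Rapalink-1 against rapamycin ran from -0.034 to 0.048. Members called ran from 0 to 1 for higher RNA with Rapalink-1 and with rapamycin against DMSO, from 0 to 1 for lower RNA and higher efficiency with rapamycin, and from 1 to 2 for lower efficiency with rapamycin. In footprints they ran from 2 to 3 higher with Rapalink-1 against either group and from 1 to 2 lower against rapamycin. Beside these, all genes called higher in RNA ran from 1846 to 2191 with Rapalink-1 and from 1174 to 1556 with rapamycin. Those lower in RNA with rapamycin ran from 818 to 1250, of 11360 to 11431 tested. In efficiency with rapamycin 477 to 728 were higher and 766 to 1196 lower, of 11063 to 11129. In footprints with Rapalink-1 2597 to 2675 were higher against DMSO. Against rapamycin 2530 to 2641 were higher and 2846 to 2923 lower, of 11364 to 11444. With the replicate block, and with the lysate as block in efficiency, no call on a member changed, with 3 higher and 1 lower in efficiency with Rapalink-1 against DMSO in each. Among the 10988 genes tested there 2447 were higher and 2191 lower with the replicate block, and 2461 and 2181 with the lysate as block. Between treatments, deviations of libraries of the same number correlated from -0.069 to 0.085. Depth limits Rps6kb2 most.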
